A study of Mus musculus with 24 samples.

Results

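The subject is the nuclear-encoded subunits of the oxidative phosphorylation machinery in mouse B-cell progenitors. Members were all protein-coding genes of the exon count table whose symbols name a subunit of complex I (Nduf), complex II (Sdh), complex III (Uqcr), complex IV (Cox4 to Cox8) or the ATP synthase, complex V (Atp5). The rule used names only and no measured value. It gave 84 of 24506 genes in the table, of which 20690 are protein-coding: 37 in complex I, 4 in complex II, 8 in complex III, 18 in complex IV and 17 in complex V. The pattern also takes in Atp5s and Atp5sl, which carry an ATP synthase symbol but are not among its core subunits. Complexes were assigned by symbol alone, so Ndufa4 and Ndufa4l2 count as complex I. A symbol need not match the complex that a protein joins.

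RNA was sequenced from fetal liver cells of C57BL6/J mice, labelled pro-B, which had been expanded with IL-7, FLT3 ligand and KIT ligand over a layer of OP9 stromal cells. All groups had been infected with the retroviral vector pMiG, either empty or carrying Ebf1 or Pax5, so even the wild-type cells carried a vector. The 7 groups of 2 libraries were wild type with empty vector, Ebf1-KO (Ebf1 deficient) with empty vector, with Ebf1 or with Pax5, and Pax5-KO (Pax5 deficient) with empty vector, with Ebf1 or with Pax5. EBF1 binding came from a single peak list of the Abelson-transformed pre-B line 230-238, which is not one of the RNA groups. Cells were pooled in bulk RNA, so a change in the kind of cells present and a change in RNA per cell cannot be told apart. The labels do not say whether the 2 libraries of a group came from separate cultures, so a p-value here reflects just the spread among these libraries, which may be technical.

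Oxidative phosphorylation takes place in the inner mitochondrial membrane. Complex I takes electrons from NADH and complex II from succinate. Complex III passes them through cytochrome c to complex IV, which reduces oxygen, and the proton gradient built on the way drives ATP synthesis by complex V. Most subunits are encoded in the nucleus, and several complex IV subunits exist as a common form and a form typical of heart, muscle, lung or testis. EBF1 and PAX5 are the transcription factors that start and hold the B-cell programme, and PAX5 is known to restrain glucose and energy metabolism in B-cell precursors. The stated subject of the series is their opposed regulation of Myc, a driver of cell growth that also acts on mitochondrial genes.

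The depth ranged from 16.118 to 42.077 M exon counts per library (M, 1e6 counts), and members took 0.4622 to 0.8665% of them. A tag in the column names separates replicate 1 from replicate 2 libraries, and the headers do not say what it marks. The exon counts as a share of the total in each column's header ran from 28.54 to 65.38%, with wild type at 36.73 and 28.54% and Pax5-KO with Ebf1 at 32.36 and 65.38%, and its part in the results was not tested. The ribosomal RNA gene Rn45s took 101000 to 249500 CPM (counts per 1e6) in replicate 1 libraries and 46240 to 134900 in replicate 2 libraries. The 12 early B markers, among them Cd79a and Igll1, had summed levels of 10130 and 9308 CPM in wild type. In Ebf1-KO cells that sum was 153.2 and 170.7 CPM and in Pax5-KO cells 1579 and 1685, and Cd79a, a chain of the B-cell receptor complex, reached at most 0.5491 CPM in the former and 79.03 in the latter, against 611.1 and 427.2 in wild type. The sum of the myeloid markers was 24.60 to 26.57 CPM in wild type, was 514.6 to 565.7 with Ebf1 lost and was 365.9 to 368.4 with Pax5 lost. The targeted gene Ebf1 stood at 966.1 and 1102 CPM in wild type, at 243.9 and 282 in its knockout, and at 856.9 and 893 when the vector returned it. Reads thus remained on Ebf1 in its knockout, and which exons were deleted is not given in the sources used here. Pax5 stood at 411.9 and 332.8 CPM in wild type, at 20.10 and 12.31 in its knockout, and at 746.2 and 439.6 when the vector returned it. Each knockout also had less RNA of the other factor, by edgeR's quasi-likelihood test. The log2 fold change of Pax5 in Ebf1-KO was -7.29 ± 0.35 (adjusted p = 2.5e-09) and that of Ebf1 in Pax5-KO -1.89 ± 0.20 (adjusted p = 8.7e-06). Pax5 was lower in Ebf1-KO than in Pax5-KO (-2.77 ± 0.30, adjusted p = 4.1e-05).

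Among the members Atp5b stood highest in wild-type cells. Per kilobase of exon, Atp5b, the catalytic beta subunit of the ATP synthase, reached 503 CPM, against 204.1 for Atp5a1, its alpha partner. Cox6a1, the common form of complex IV subunit 6A, reached 235.9 CPM per kilobase, and Cox4i1, the common form of subunit 4, 166.3. Across all 14 libraries Atp5b and Atp5a1 together made up 34.2% of the members' summed CPM. Of the 84 members, 12 averaged 100 CPM or more over the 14 libraries, 58 averaged 10 to 100, 6 averaged 1 to 10 and 8 less than 1. Cox7b2 and Cox8c were at 0 in every library, and the other 82 passed the filter on low counts and were tested. The low genes were mostly tissue forms. Cox8b, a heart and muscle form, had 0 to 21 reads in a library, Cox4i2, a lung form, had 0 to 27, and Cox6b2, a testis form, had 0 to 44. No fold is given for these 3, since Cox4i2 and Cox6b2 had groups at 0 reads and Cox8b groups with 1 or 2 reads in all. The subunits that mitochondrial DNA encodes were not analysed here.

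Some members of each complex had an EBF1 peak at the start. In the 230-238 line 20 of 84 members had a peak centre within 1 kb of their annotated start (23.8%), against 18.7% of all protein-coding genes. Among protein-coding genes that passed the RNA filter the share was 28.4%, against 24.4% of the tested members. Peaks lay closest to the starts of Atp5sl (6 bases downstream of the start), Cox7a1 (15 bases upstream), Ndufb2 (21 downstream), Ndufv1 (23 downstream), Cox4i1 (26 downstream) and Sdhc (41 upstream). The outermost member inside the window was Ndufa13, at 620 bases, and the next outside it was Atp5d, at 1006. With only peaks above the list's median score of 41 (the authors' value), 7 members had one (8.33%), against 7.53% of all protein-coding genes. Among those that passed the RNA filter it was 8.54% of members, against 11.4% of protein-coding genes. Cox7a1, the heart and muscle form of complex IV subunit 7A, had a peak of score 51, while its RNA stood at 0.1381 to 2.523 CPM in the 14 libraries. The 20 members with a peak had a median log2 fold change of 0.47 in Ebf1-KO against wild type, and the 62 without one also 0.47. When Ebf1 was put into Ebf1-KO cells, the medians were 0.10 and 0.02.

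The promoters below run from 250 bases before to 50 bases after the start and are shown for 2 members with a peak centre inside that window, and for 3 members called in 2 or more comparisons. They were taken from RefSeq on GRCm38.p6 and are written 5′ to 3′ on the gene's strand. Capitals mark matches on either strand to CGGAAG (the core that ETS factors such as GABP bind), GCATGCGC (NRF1) or AAGATGGC (YY1), and CCCNNGGG (the EBF1 core), also searched, had no match in them. The windows are Ndufv1 at chr19:4012706-4013005 (minus strand), Cox7a1 at chr7:30183921-30184220 (plus strand), Uqcr11 at chr10:80406772-80407071 (minus strand), Sdhd at chr9:50603800-50604099 (minus strand) and Ndufb8 at chr19:44555393-44555692 (minus strand).
Ndufv1: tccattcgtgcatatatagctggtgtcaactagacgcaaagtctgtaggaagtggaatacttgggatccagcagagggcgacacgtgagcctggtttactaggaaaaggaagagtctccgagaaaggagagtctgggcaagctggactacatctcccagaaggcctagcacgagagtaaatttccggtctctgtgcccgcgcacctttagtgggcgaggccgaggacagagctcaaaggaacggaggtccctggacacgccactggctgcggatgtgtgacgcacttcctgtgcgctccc
Cox7a1: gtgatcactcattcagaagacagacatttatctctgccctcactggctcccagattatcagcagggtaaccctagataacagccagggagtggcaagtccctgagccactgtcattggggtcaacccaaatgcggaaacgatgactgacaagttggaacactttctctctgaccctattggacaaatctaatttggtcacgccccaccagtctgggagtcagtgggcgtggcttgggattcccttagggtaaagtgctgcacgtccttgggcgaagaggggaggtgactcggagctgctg
Uqcr11: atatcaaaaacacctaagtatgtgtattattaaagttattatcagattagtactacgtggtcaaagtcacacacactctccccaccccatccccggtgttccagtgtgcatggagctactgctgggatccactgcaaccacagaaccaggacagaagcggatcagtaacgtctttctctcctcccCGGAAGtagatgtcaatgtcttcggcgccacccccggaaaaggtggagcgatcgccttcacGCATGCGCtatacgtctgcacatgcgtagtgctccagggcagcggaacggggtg
Sdhd: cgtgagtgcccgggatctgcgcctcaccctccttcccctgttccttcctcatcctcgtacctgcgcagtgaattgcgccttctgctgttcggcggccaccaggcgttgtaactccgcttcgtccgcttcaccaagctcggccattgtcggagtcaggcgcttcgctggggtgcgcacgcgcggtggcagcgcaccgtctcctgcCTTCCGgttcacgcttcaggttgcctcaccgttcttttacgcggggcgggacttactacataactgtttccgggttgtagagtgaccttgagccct
Ndufb8: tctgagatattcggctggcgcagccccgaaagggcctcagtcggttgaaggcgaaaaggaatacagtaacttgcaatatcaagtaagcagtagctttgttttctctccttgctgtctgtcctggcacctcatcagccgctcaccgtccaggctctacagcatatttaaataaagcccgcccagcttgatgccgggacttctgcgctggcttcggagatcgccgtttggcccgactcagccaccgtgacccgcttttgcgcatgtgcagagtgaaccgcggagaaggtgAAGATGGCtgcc

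Of the members, 69 had an entry in the promoter table. The ETS core was found in 27 of the 69 (39.1%), against 23.5% of 17492 protein-coding genes with a promoter of the same length. NRF1 letters were found in 10 (14.5%, against 3.94%), YY1 letters in 11 (15.9%, against 3.57%) and the EBF1 core in 8 (11.6%, against 17.6%). Uqcr11 had an ETS and an NRF1 match, Sdhd an ETS match, Ndufb8 a YY1 match, and Ndufv1 and Cox7a1 had none of the 4. Members without a matched entry included Atp5a1, Cox4i1, Cox4i2, Cox6a2, Cox6c, Cox8c, Ndufa2, Ndufa4l2, Ndufb9, Ndufs1, Sdhc, Uqcrb, Uqcrc2 and Uqcrq.

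Across the 7 groups, 14 of the 82 tested members differed (17.1%), against 27.2% of all 14550 genes tested, by edgeR's quasi-likelihood test at an adjusted p of 0.05. They were 5 of complex I, 1 of complex II, 4 of complex III, 3 of complex IV and 1 of complex V. In order of p they were Cox6a2, Sdhd, Ndufb8, Atp5f1, Cox7a2l, Uqcrc2, Ndufc2, Ndufb9, Uqcrq, Ndufa1, Cox4i1, Ndufb7, Uqcr10 and Uqcr11.

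Without Ebf1 or without Pax5, most subunit genes stood somewhat above wild type, and few passed the test. Among the 82 tested members in Ebf1-KO, 74 had a positive sign, with a median log2 fold change of 0.47, and in Pax5-KO also 74, with a median of 0.60. The median over all tested genes was 0.03 in the former and 0.04 in the latter. Members were shorter, with a median exon length of 696 bases against 2745 for tested genes, and a part of length was not tested. Ebf1-KO had 5 members higher and 0 lower, where 8.02% of all genes rose and 6.65% fell. Pax5-KO likewise had 5 higher and 0 lower, where 8.65% of all genes rose and 5% fell. At an unadjusted p under 0.05, 21 of the 82 members were higher and 0 lower in Ebf1-KO, and 26 higher and 1 lower in Pax5-KO. Of all tested genes, 26.7% were under 0.05 in each of the 2 comparisons, both directions together. DESeq2 called 12 and 15 members, all higher, and no share over all genes is given for DESeq2 here or below. Both comparisons used the same wild-type libraries, so their likeness is not independent. Within the libraries of replicate 1 the members' median difference was 0.50 in Ebf1-KO and 0.29 in Pax5-KO, and within those of replicate 2 it was 0.39 and 0.82.

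**Figure D1:**
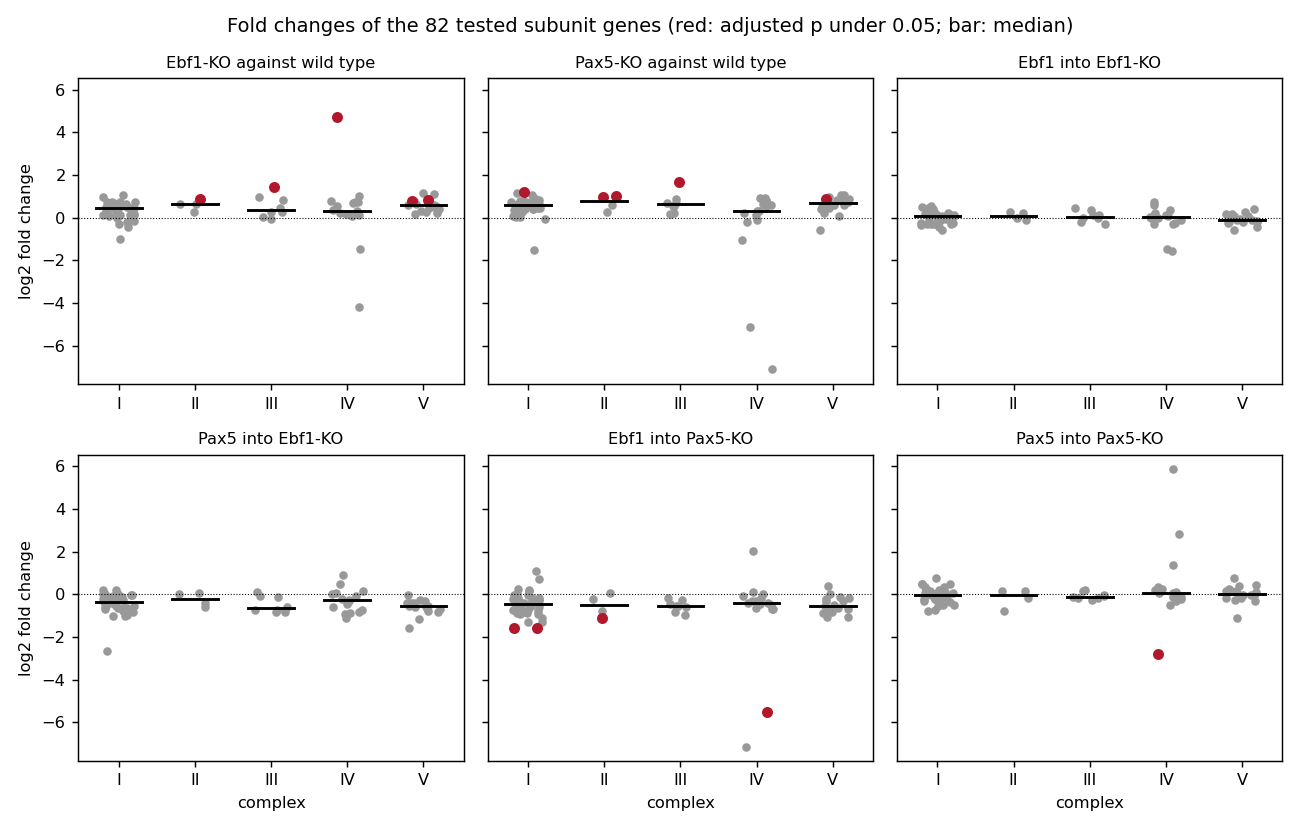
Log2 fold changes (vertical axis) of the 82 tested subunit genes by complex (horizontal axis) in 6 comparisons, with red points for genes called by edgeR and bars for the median of a complex. In both knockouts against wild type 74 of 82 points lie above 0, and the called points number 5 and 5. Uncalled points beyond 5 units are Cox4i2, Cox6b2 and Cox8b, genes with no more than 1 read in each library of a group.

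By complex, the median log2 fold change in Ebf1-KO was 0.44 for complex I, 0.65 for II, 0.38 for III, 0.33 for IV and 0.59 for V. In Pax5-KO it was 0.60, 0.77, 0.62, 0.33 and 0.69 in the same order. All 17 complex V members had a positive sign in Ebf1-KO and 16 did in Pax5-KO, and all 4 complex II members did in both. Summed over its members, complex V had 2386 and 1814 CPM in wild type, against 3000 and 3817 without Ebf1 and 3396 and 3404 without Pax5. The sum for complex I was 1085 and 1066 CPM in wild type, against 1478 and 1378 without Ebf1 and 1376 and 1832 without Pax5. For both sums the libraries of the knockouts lay above both wild-type libraries.

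Uqcr11, a small subunit of complex III (NM_025650, chr10:80402997-80406821), rose in both knockouts. Wild-type libraries had 6.578 and 8.125 CPM, Ebf1-KO libraries 19.90 and 19.86, and Pax5-KO libraries 17.87 and 29.54. The log2 fold change of Uqcr11 was 1.43 ± 0.40 (SE) in Ebf1-KO (adjusted p = 0.026) and 1.69 ± 0.41 in Pax5-KO (adjusted p = 0.012). Atp5f1, the b subunit of the stator stalk of ATP synthase (NM_009725), was the other member called in both. Its wild-type libraries had 52.57 and 57.05 CPM, Ebf1-KO libraries 95.72 and 96.07, and Pax5-KO libraries 87.19 and 113.6. The log2 fold changes were 0.81 ± 0.24 and 0.87 ± 0.24 (adjusted p = 0.031 and 0.022). Atp5f1 overlaps Wdr77, and the counting command names no strand, so reads of the pair cannot be told apart.

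Complex II, which is also the succinate dehydrogenase of the citric acid cycle, had calls in each knockout. Sdhd, a membrane anchor (NM_025848, chr9:50596340-50603849), rose from 106.4 and 79.99 CPM in wild type to 186.4 and 157.3 in Ebf1-KO (log2 0.88 ± 0.24, adjusted p = 0.019). In Pax5-KO it stood at 145.9 and 133.3 CPM and was not called. Sdha, the flavoprotein that oxidises succinate, rose from 291.0 and 182.9 CPM to 417.0 and 506.5 in Pax5-KO (0.96 ± 0.26, adjusted p = 0.025). Sdhc, the other anchor, rose from 94.01 and 77.76 CPM to 106.2 and 238.6 in the same knockout (1.01 ± 0.29, adjusted p = 0.030). Without Pax5-KO replicate 2 the log2 fold change of Sdhc was 0.31 (adjusted p = 0.64).

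Among the other calls, Atp5c1, the gamma subunit that forms the turning shaft of ATP synthase, rose in Ebf1-KO from 118.8 and 99.22 to 205.6 and 185.2 CPM (0.84 ± 0.23, adjusted p = 0.024). Ndufv1, the subunit of complex I that binds NADH, stood at 31.59 and 25.92 CPM in wild type and at 54.85 and 76.91 in Pax5-KO (1.20 ± 0.38, adjusted p = 0.049). In Ebf1-KO Ndufv1 stood at 52.21 and 67.47 CPM (1.06 ± 0.38, adjusted p = 0.078). For Ndufv1 only the Pax5-KO comparison passed the test.

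Other core subunits had positive values that did not pass. In Ebf1-KO the log2 fold changes were 0.80 ± 0.33 for Atp5b, 0.67 ± 0.28 for Atp5a1, 1.18 ± 0.41 for Atp5g1 (a ring subunit of the proton channel) and 0.74 ± 0.25 for Cox4i1. In Pax5-KO they were 0.60 ± 0.33, 0.87 ± 0.28, 1.08 ± 0.41 and 0.33 ± 0.25. Ndufs1, the largest iron-sulfur subunit of complex I, was at 0.12 ± 0.25 in Ebf1-KO and -0.07 ± 0.25 in Pax5-KO. Sdhb was at 0.26 ± 0.25 and 0.29 ± 0.25, and Uqcrfs1, the Rieske iron-sulfur protein of complex III, at -0.05 ± 0.27 and 0.57 ± 0.27. Ndufs7 (0.62 ± 0.36 and 0.87 ± 0.36), Uqcrc1 (0.29 ± 0.30 and 0.68 ± 0.30) and Cox5a (0.16 ± 0.35 and 0.83 ± 0.35) were not called either.

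These calls rest on few libraries. Leaving out wild-type replicate 2 left 1 of the calls in Ebf1-KO and 0 in Pax5-KO, and leaving out Pax5-KO replicate 2 left 0, while leaving out Pax5-KO replicate 1 gave 11. Without Ebf1-KO replicate 1 there was 1 call in that comparison, without Ebf1-KO replicate 2 there were 2, and without wild-type replicate 1 there were 3 in Pax5-KO. The members' median kept its sign throughout, from 0.41 to 0.51 in Ebf1-KO and from 0.31 to 0.82 in Pax5-KO.

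**Figure D2:**
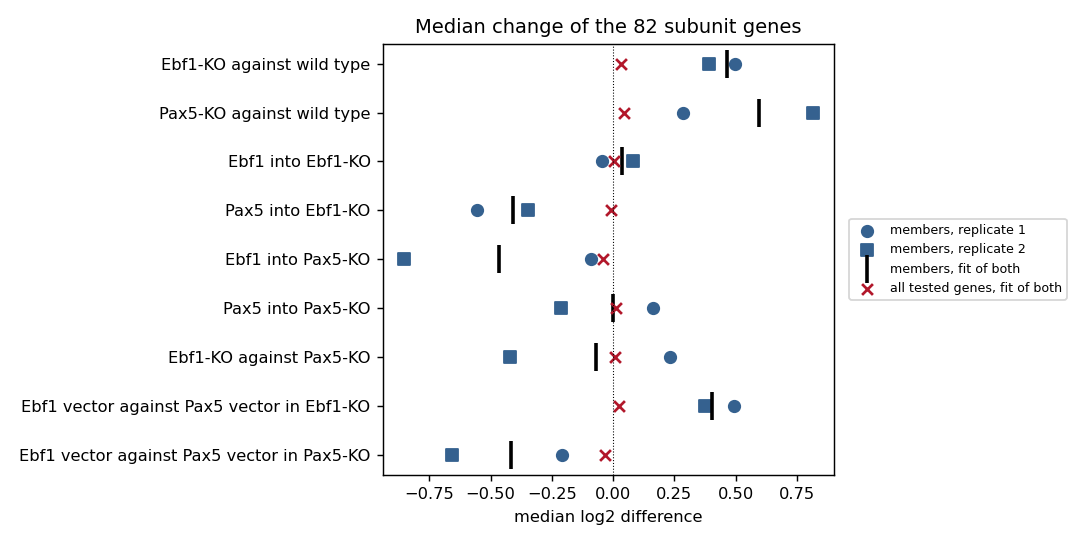
Median log2 difference over the 82 tested subunit genes (horizontal axis) in 9 comparisons (rows), within replicate 1 libraries (circles), within replicate 2 libraries (squares) and in the fit of both (bars), beside the median over all 14550 tested genes (crosses). Both knockouts lie right of 0 in either replicate, Pax5 into Ebf1-KO and Ebf1 into Pax5-KO lie left of 0, and 3 comparisons change side between replicates.

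Putting in the other factor gave mostly negative signs in both knockouts. Putting a factor back into its own knockout gave about as many positive as negative signs. A returned factor also raised the other one: Pax5 rose with Ebf1 in Ebf1-KO cells (3.89 ± 0.31, adjusted p = 2.3e-06). Ebf1 rose with Pax5 in Pax5-KO cells (0.95 ± 0.19, adjusted p = 0.0090). The signs after a return thus cannot be laid to 1 factor alone. Ebf1 put back into Ebf1-KO cells gave 42 positive and 40 negative signs, the median log2 fold change was 0.03, and 0 were called, where 2.21% of all genes rose and 0.763% fell. Cox6a2 was the 1 member lower at an unadjusted p under 0.05, with 0 higher, against 11.1% of all genes in either direction. DESeq2 called 1, lower. Pax5 put into the same cells gave 71 negative and 11 positive signs and a median of -0.41. Again 0 were called, where 3.15% of all genes rose and 0.935% fell. Of the 82 members, 13 were lower at an unadjusted p under 0.05, where 16.7% of all genes were under it in either direction. DESeq2 called 3 lower. The smallest adjusted p there was that of Ndufb9, an accessory subunit of complex I, at 75.82 and 44.82 CPM in Ebf1-KO and 31.29 and 28.19 with Pax5 (-1.02 ± 0.32, adjusted p = 0.098).

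In Pax5-KO cells, Pax5 put back gave 42 positive and 40 negative signs, a median of 0.00 and 1 call, Cox6a2, which was lower, where 1.64% of all genes rose and 2.4% fell. At an unadjusted p under 0.05, 1 member was higher and 2 were lower, against 14.7% of all genes in either direction. DESeq2 called 1, lower. Without Pax5-KO replicate 1 there were 3 calls, all lower, and without Pax5-KO with Pax5 replicate 1 there were 0. The median near 0 joins replicates that differed in sign: it was 0.16 within replicate 1, with 61 members higher and 21 lower, and -0.21 within replicate 2, with 28 higher and 54 lower. Ebf1 gave 70 negative and 11 positive signs, a median of -0.47 and 4 lower calls with 0 higher, where 1.75% rose and 1.85% fell. There were 24 of 82 members lower and 0 higher at an unadjusted p under 0.05, against 20.7% of all genes in either direction. DESeq2 called 12 lower and 0 higher. The median with Ebf1 was -0.09 within replicate 1 and -0.85 within replicate 2 (all genes, -0.16 and 0.00), and it was -0.18 without Pax5-KO replicate 2. Leaving out that library left 1 call, and leaving out the Pax5-KO with Ebf1 library of replicate 2 gave 12, 1 of them higher.

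The 3 calls with Ebf1 in Pax5-KO besides Cox6a2 were small subunits. Ndufb7, an accessory subunit of complex I (NM_025843), stood at 25.60 and 48.52 CPM in Pax5-KO and at 10.21 and 14.54 with Ebf1 (-1.58 ± 0.37, adjusted p = 0.032). Ndufa1, another accessory subunit (NM_019443), stood at 30.11 and 36.06 CPM and at 11.35 and 11.08 with Ebf1 (-1.56 ± 0.37, adjusted p = 0.030). Sdhd stood at 145.9 and 133.3 CPM and at 51.00 and 80.70 with Ebf1 (-1.08 ± 0.24, adjusted p = 0.021). Ndufa1 overlaps Rnf113a1, whose reads cannot be separated from it here. All 3 calls were lost on fitting only the 2 groups compared.

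**Figure D3:**
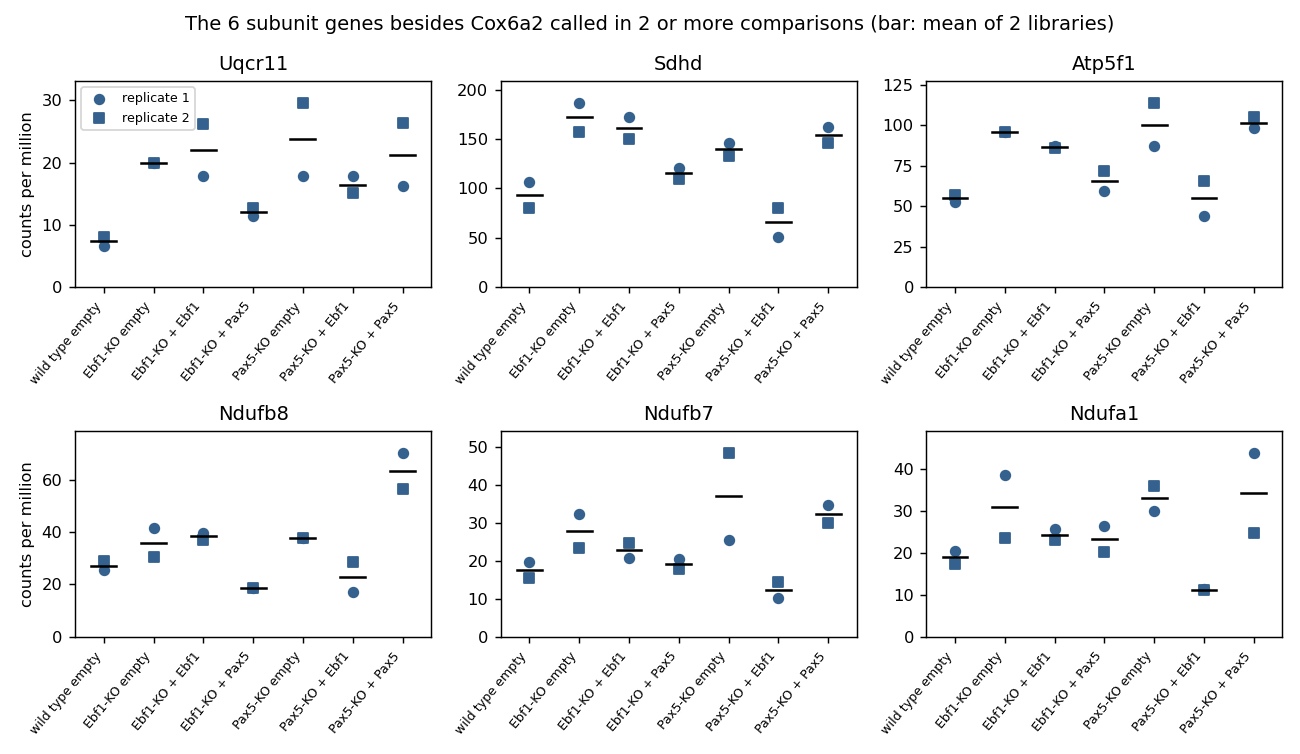
CPM (vertical axes, from 0) in each of the 14 libraries for the 6 subunit genes besides Cox6a2 that were called in 2 or more comparisons, with a bar for the mean of 2 libraries. Uqcr11 is lowest in wild type (6.578 and 8.125), and Ndufb7, Ndufa1 and Sdhd have their lowest means in Pax5-KO with Ebf1.

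Set directly against each other, the 2 vectors gave mostly opposite signs in the 2 backgrounds. Of all genes, 51.1% had a positive sign in Ebf1-KO and 47.1% in Pax5-KO. Within replicates 1 and 2 the members' median was 0.49 and 0.375 in Ebf1-KO (all genes, 0.00 and 0.07). In Pax5-KO it was -0.21 and -0.66 (all genes, -0.135 and -0.05). In Ebf1-KO cells, Ebf1 against Pax5 gave 74 positive and 8 negative signs, a median of 0.40, and 2 members higher and 1 lower, where 4.74% of all genes were higher and 5.46% lower. At an unadjusted p under 0.05, 13 of 82 were higher and 1 lower, against 23.7% of all genes in either direction. DESeq2 called 3 higher and 1 lower. In Pax5-KO cells, Ebf1 against Pax5 gave 67 negative and 15 positive signs, a median of -0.42, and 8 lower and 0 higher, where 3.18% of all genes were lower and 3.64% higher. There, 21 of 82 members were lower and 0 higher at an unadjusted p under 0.05, against 22.8% of all genes in either direction. DESeq2 called 14 lower and 0 higher. Leaving out any of the 4 libraries in Ebf1-KO left 0 or 1 call, with 0 left without Ebf1 replicate 1 or Pax5 replicate 2. In Pax5-KO 3 calls were left without either Pax5 library and 13 were made without Ebf1 replicate 2.

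Uqcrq, a complex III subunit that binds ubiquinone, was higher with Ebf1 in Ebf1-KO cells, at 105.5 and 79.56 CPM against 36.24 and 45.63 with Pax5 (1.18 ± 0.31, adjusted p = 0.025). Ndufb8, an accessory subunit of complex I (NM_026061, chr19:44550240-44555442), was higher with Ebf1 in the same cells, at 39.71 and 36.88 CPM against 18.75 and 18.48 (1.04 ± 0.30, adjusted p = 0.041). In Pax5-KO cells Ndufb8 was lower with Ebf1, at 17.06 and 28.41 CPM against 70.17 and 56.29 with Pax5 (-1.47 ± 0.31, adjusted p = 0.0093). Ndufb8 stood at 41.36 and 30.49 CPM in Ebf1-KO and at 37.64 and 37.64 in Pax5-KO with empty vector. With Pax5 it thus lay below the knockout's own libraries in one background and above them in the other.

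The remaining members lower with Ebf1 than with Pax5 in Pax5-KO cells were Cox6a2, Ndufa1, Ndufb7, Sdhd, Ndufc2, Uqcrc2 and Atp5f1. Sdhd stood at 51.00 and 80.70 against 162.6 and 146.5 CPM (-1.23 ± 0.24, adjusted p = 0.0059). Uqcrc2, a core protein of complex III, stood at 60.01 and 51.56 against 103.3 and 129.3 CPM (-1.06 ± 0.23, adjusted p = 0.011). Ndufc2 stood at 33.34 and 46.46 against 86.51 and 85.36 CPM (-1.10 ± 0.25, adjusted p = 0.016), and Atp5f1 at 43.97 and 65.55 against 98.01 and 104.8 (-0.89 ± 0.24, adjusted p = 0.036). Ndufa1 fell by 1.61 and Ndufb7 by 1.39 on the log2 scale (adjusted p = 0.016 and 0.038). The groups did not overlap for any of these 6, which were picked by their calls in this same comparison. No share of all genes without overlap was computed, so it adds nothing to the calls. Uqcrc2 overlaps Pdzd9, and reads of the pair cannot be told apart.

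The difference of a vector's effect between the 2 knockouts was tested as an interaction. For Ebf1, 1 member was called higher in Ebf1-KO, Cox6a2, and 0 lower, where 0.577% of all genes were higher and 0.0344% lower. Unadjusted, 12 of 82 were higher and 0 lower at a p under 0.05, against 8.38% of all genes in either direction. DESeq2 called 1 higher and 0 lower. For Pax5, Cox6a2 was called higher and Ndufb8 lower in Ebf1-KO, where 2.43% of all genes were higher and 0.735% lower. The median of the members was 0.55 for Ebf1 and -0.40 for Pax5. At an unadjusted p under 0.05, 1 was higher and 9 lower for Pax5, against 16.3% of all genes in either direction. DESeq2 called 1 and 1. Members other than Cox6a2 and Ndufb8 did not pass the test of the difference. That of Ndufb8 was lost without any 1 of the 8 libraries.

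**Figure D4:**
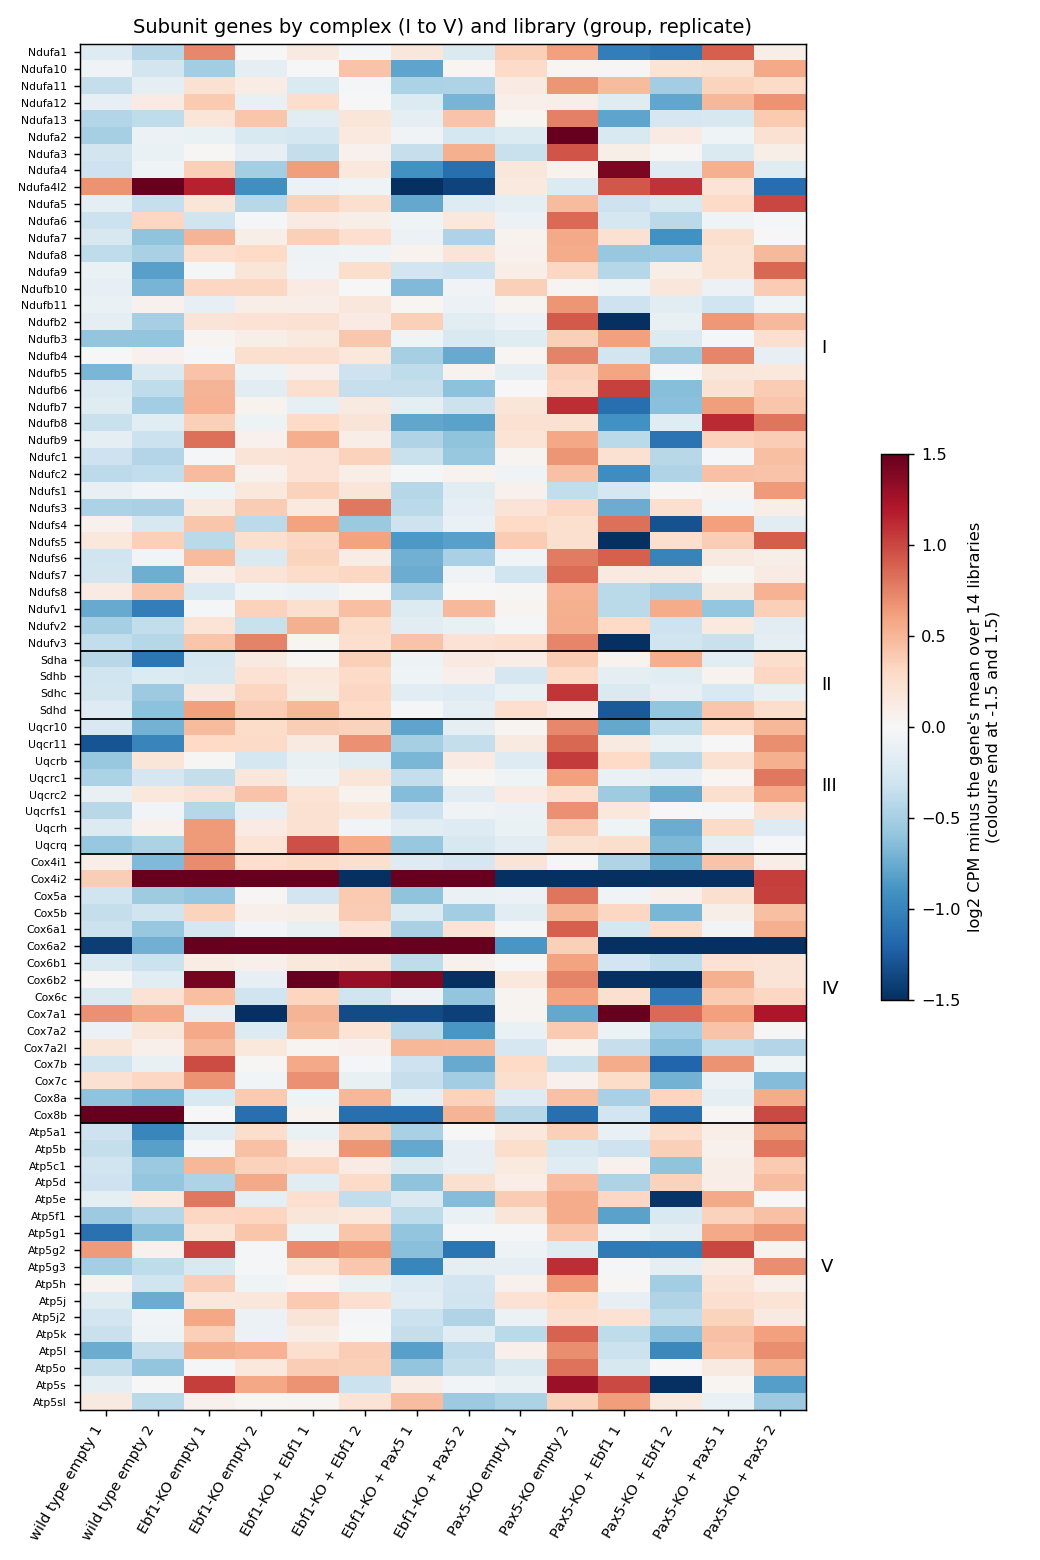
Log2 CPM of 81 of the 82 tested subunit genes (rows, by complex I to V) in 14 libraries (columns), minus each gene's mean, with colours ending at -1.5 and 1.5. Both wild-type columns are mostly blue and the Pax5-KO replicate 2 column mostly red, and Cox6a2 is red in the 6 libraries of Ebf1-KO background and dark blue in the 4 libraries of Pax5-KO with a vector gene.

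Cox6a2 was the member that differed most among the groups. It encodes the heart and muscle form of subunit 6A of complex IV and lies at chr7:128205435-128206366 on the minus strand (NM_009943, mm10). Wild-type libraries had 3.833 and 6.237 CPM. Ebf1-KO cells had 116.7 and 148.0 CPM with the empty vector, 35.42 and 55.23 once Ebf1 was returned, and 158.9 and 210.3 once Pax5 was added. Pax5-KO cells had 5.594 and 13.25 CPM with the empty vector, 0.06007 and 0.2763 once Ebf1 was added, and 0.8847 and 1.755 once Pax5 was returned. The 6 libraries of Ebf1-KO cells lay above the other 8.

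Cox6a2 rose by 4.72 ± 0.49 on the log2 scale in Ebf1-KO against wild type (adjusted p = 8.4e-06) and stood 3.80 ± 0.47 above Pax5-KO (adjusted p = 0.00013). Both calls held in every alternative fit that kept both libraries of each group. With each of the 4 libraries compared left out in turn also counted, the values ran from 4.41 to 5.11 and from 3.32 to 4.56. That comparison of the 2 knockouts called 1 member higher, Cox6a2, and 0 lower, where 1.15% of all genes were higher and 2.94% lower in Ebf1-KO. Unadjusted, 2 members were higher and 2 lower at a p under 0.05, against 12.8% of all genes in either direction. DESeq2 called 1 higher and 0 lower. Without Pax5-KO replicate 1 there were 2 calls, 1 in each direction. In Ebf1-KO cells Ebf1 gave -1.54 ± 0.43 (adjusted p = 0.075) and Pax5 0.48 ± 0.42 (adjusted p = 0.65), and the Ebf1 vector stood below the Pax5 vector by -2.03 ± 0.43 (adjusted p = 0.0071).

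In Pax5-KO cells both vectors brought Cox6a2 down, Pax5 by -2.80 ± 0.48 (adjusted p = 0.0030) and Ebf1 by -5.51 ± 0.61 (adjusted p = 0.00023). With Ebf1 it rested on 12 reads in 2 libraries, against 571 in Pax5-KO, a ratio of 48.6 with a counting interval of 27.6 to 94.6 (95%, exact, counting error only). Against the 81 reads of the Pax5 vector that of Ebf1 was lower, with a ratio of 6.71 (3.64 to 13.5) and an adjusted p of 0.020, a call lost without Pax5-KO with Ebf1 replicate 1 or Pax5-KO with Pax5 replicate 2, and on fitting only the groups compared (adjusted p = 0.45). The effect of Ebf1 differed between the knockouts by 3.97 ± 0.74 (adjusted p = 0.022) and that of Pax5 by 3.28 ± 0.63 (adjusted p = 0.011). The first of these was lost on fitting only the groups compared (adjusted p = 0.063) and without Ebf1-KO replicate 1, Ebf1-KO with Ebf1 replicate 2 or Pax5-KO replicate 2, and the second without Ebf1-KO replicate 1, Pax5-KO replicate 2 or Pax5-KO with Pax5 replicate 1. Without those libraries the adjusted p was at most 0.11 for the former and 0.070 for the latter. The fall with Pax5 in Pax5-KO had an adjusted p of 0.050 without Pax5-KO with Pax5 replicate 1, and the fall with Ebf1 was not called when only its 2 groups were fitted.

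**Figure D5:**
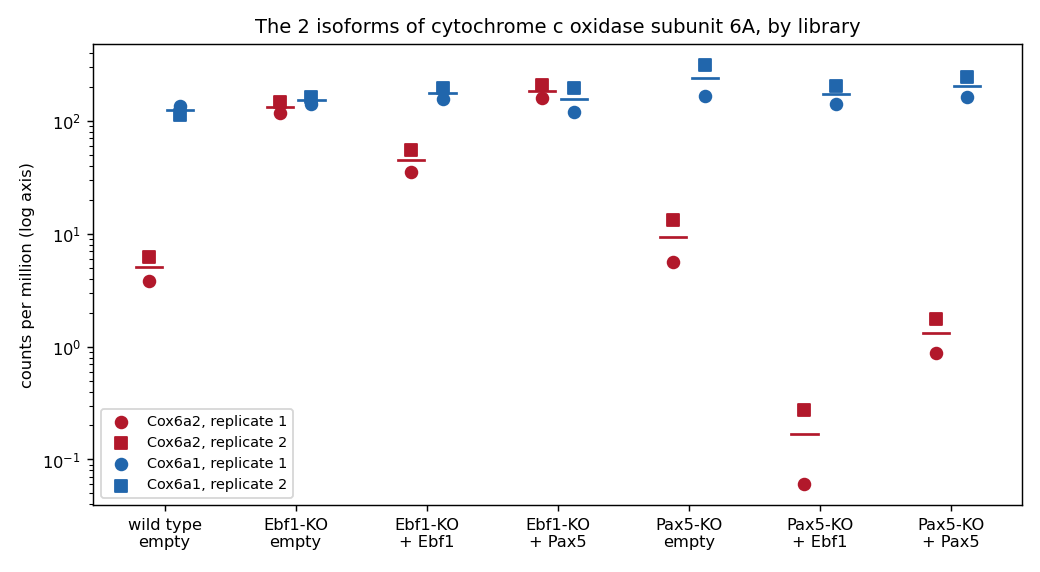
CPM (vertical log axis) of Cox6a2 and its common partner Cox6a1 in each of the 14 libraries, by group, with a bar for the mean of 2 libraries. Cox6a1 lies between 113.7 and 313.4 in every library, while Cox6a2 runs from 0.06007 to 210.3 and exceeds 100 only in Ebf1-KO with empty vector or Pax5.

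The partner gene Cox6a1 was not called in any comparison and stood at 113.7 to 313.4 CPM. Per kilobase of exon, Cox6a2 reached 202.4 CPM without Ebf1 and 282.3 once Pax5 was added, against 7.698 in wild type. Cox6a2 shares 69 bases with the end of Itgad, an integrin gene on the opposite strand (chr7:128173946-128205503), and Itgax and Itgam lie beyond it. These neighbours were chosen after their values were seen. Itgad had 0 and 0.1717 CPM in wild type. Ebf1-KO libraries had 10.94 and 7.113 CPM of it, 3.181 and 2.824 once Ebf1 was returned, 11.85 and 16.15 once Pax5 was added, and the Pax5-KO groups at most 0.8534. Its level per kilobase was 2.296 CPM in Ebf1-KO and 3.561 with Pax5. Itgam, a myeloid marker, had 23.31 and 23.17 CPM in wild type, against 76.60 and 107.7 without Ebf1 and 166.5 and 124.6 once Pax5 was added to those cells. Itgad was thus also highest in the groups where Cox6a2 was highest. The counting command names no strand, so reads over the 69 shared bases cannot be told apart. Ebf1-KO libraries had 239 and 206 reads of Itgad, against 2551 and 4285 of Cox6a2, and the part of shared reads was not tested. Itgam was above wild type in those groups, and values of Itgax are not given here. The nearest EBF1 peak to the Cox6a2 start lay 31137 bases upstream of it.

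Markers of other cells moved with Cox6a2 in part. The 10 myeloid markers, of which 8 of 9 tested rose in Ebf1-KO, summed to 246.8 to 278.6 CPM in Ebf1-KO with Ebf1, 585.9 to 644.9 with Pax5, and 365.9 to 368.4 in Pax5-KO, where Cox6a2 was near the wild-type level. The 9 markers of NK and innate lymphoid cells summed to 200.0 and 265.6 CPM without Ebf1 and 383.3 and 426.0 without Pax5, and the 8 T lineage markers to 248.7 and 287.2 and to 317.2 and 357.2. The 10 markers of OP9-type stroma summed to 62.78 and 72.10 CPM in Ebf1-KO, 79.46 and 86.72 with Pax5, 22.51 and 21.68 with Ebf1, and 0.9155 to 13.72 elsewhere. That sum came almost wholly from Pdgfrb and Sparc: Dcn and Lum were at 0 in every library and Col3a1 at no more than 0.07535 CPM. Erythroid markers summed to 2.838 to 31.72 CPM over all libraries. The part of these cells in the result was not tested.

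Other mitochondrial lists are set beside the shares of all genes that rose, 8.02% without Ebf1 and 8.65% without Pax5. Of 48 assembly factors, all tested, 2 rose in Ebf1-KO (Lyrm7 by 1.97 ± 0.48 and Coa5 by 0.82 ± 0.26, adjusted p = 0.010 and 0.049) and 1 in Pax5-KO (Coa5, 0.99 ± 0.26, adjusted p = 0.020), with medians of 0.22 and 0.36. Ndufaf4, which helps build complex I, was the 1 assembly factor that fell with Pax5 in Ebf1-KO cells (-1.32 ± 0.33, adjusted p = 0.038). Ndufaf4 was 1 of 3 assembly factors called higher with Ebf1 than with Pax5 there (1.56 ± 0.33, adjusted p = 0.0072). In Pax5-KO cells it was 1 of 2 called lower (-1.39 ± 0.33, adjusted p = 0.021). Of all genes, 4.74% were higher in the former comparison and 3.18% lower in the latter. The difference of the Pax5 effect between the knockouts was called for Ndufaf4 (-2.02 ± 0.46, adjusted p = 0.029), as it was for Ndufb8.

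Of 18 enzymes of the citric acid cycle and pyruvate entry, 1 rose in Ebf1-KO and 3 in Pax5-KO. Fh1, fumarase, rose in both (0.96 ± 0.24 and 1.34 ± 0.24, adjusted p = 0.012 and 0.0014) and fell with Ebf1 in Pax5-KO cells (-1.21 ± 0.24, adjusted p = 0.013). Suclg1 and Suclg2, of succinyl-CoA ligase, rose in Pax5-KO (1.24 ± 0.39 and 1.47 ± 0.44, adjusted p = 0.049 and 0.037). Of 21 electron carriers and inner membrane carriers, 1 rose and 1 fell in Ebf1-KO and 2 rose and 0 fell in Pax5-KO. Etfb, which feeds electrons from fatty acid oxidation, rose in both (1.30 ± 0.36 and 1.15 ± 0.36, adjusted p = 0.023 and 0.045), and the ATP carrier Slc25a4 rose in Pax5-KO (0.84 ± 0.25, adjusted p = 0.037).

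Ucp2, a carrier protein of the inner membrane, fell without Ebf1 and rose with the Ebf1 vector in both knockouts. Wild-type libraries had 2156 and 1861 CPM. Ebf1-KO cells had 291.4 and 470.4 CPM with the empty vector, 1926 and 2628 once Ebf1 was returned, and 490.3 and 678.0 once Pax5 was added. Pax5-KO cells had 951.2 and 1232 CPM, 2666 and 5071 once Ebf1 was added, and 1302 and 1719 once Pax5 was returned. The fall in Ebf1-KO was -2.40 ± 0.33 (adjusted p = 0.00011), the rise with Ebf1 2.58 ± 0.33 in Ebf1-KO cells (adjusted p = 0.00027) and 1.83 ± 0.32 in Pax5-KO cells (adjusted p = 0.0065).

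Of 19 regulators of mitochondrial biogenesis in the table, Gabpb1, a subunit of the ETS-family factor GABP, fell in Ebf1-KO (-0.82 ± 0.23, adjusted p = 0.024), and none was called in Pax5-KO against wild type. In the direct comparison of vectors, Pprc1 (1.30 ± 0.25, adjusted p = 0.0035) and Twnk (1.21 ± 0.36, adjusted p = 0.045) were higher with Ebf1 in Ebf1-KO cells, and Tfam, which packs and transcribes mitochondrial DNA, was lower with Ebf1 in Pax5-KO cells (-1.06 ± 0.23, adjusted p = 0.014). Myc had 299.3 and 248.2 CPM in wild type. Ebf1-KO cells had 143.4 and 186.6 CPM of it with the empty vector, 308.3 and 417.9 once Ebf1 was returned, and 66.79 and 84.33 once Pax5 was added. Pax5-KO cells had 276.8 and 344.4 CPM, 307.1 and 445.3 once Ebf1 was added, and 498.8 and 670.1 once Pax5 was returned. The log2 fold change of Myc was -0.73 ± 0.25 in Ebf1-KO against wild type (adjusted p = 0.068), where the members' median was 0.47, and 0.18 ± 0.25 in Pax5-KO (adjusted p = 0.69), where it was 0.60. With Ebf1 into Ebf1-KO cells Myc rose by 1.14 ± 0.25 (adjusted p = 0.021, members' median 0.03), and with Pax5 it was -1.13 ± 0.25 (adjusted p = 0.021, members' median -0.41). Ebf1 against Pax5 gave 2.26 ± 0.26 for Myc in Ebf1-KO cells (adjusted p = 5.7e-05, members' median 0.40) and -0.64 ± 0.25 in Pax5-KO cells (adjusted p = 0.15, members' median -0.42). Into Pax5-KO cells, Myc was at 0.28 ± 0.25 with Ebf1 (adjusted p = 0.57, members' median -0.47) and 0.91 ± 0.25 with Pax5 (adjusted p = 0.060, members' median 0.00). These comparisons share libraries, and a part of Myc in the members' values was not tested.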

How the data were processed

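Per the file headers, the authors summed reads over exons with HOMER on mm10 and deposited raw counts for each gene. No setting for strand is in the header's command. Per the submitters' processing notes the tools include STAR 2.6.0b-1 and HOMER 4.8, with no roles given. Per the file headers, HOMER and IDR gave the authors' EBF1 peaks. Their normalized tag count is a signal scaled by the authors, and their findPeaks score, set by the authors, only filtered and described peaks. One list of 17230 peaks came from 2 immunoprecipitated samples and an input.

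Counts of 14 libraries were fitted in R 4.3.3 with edgeR 4.0.16: filterByExpr, TMM scaling and 1 quasi-likelihood fit of the 7 groups, with Benjamini-Hochberg adjustment over all 14550 tested genes and a threshold of 0.05. A gene called passed it. Log2 CPM and the differences within a replicate used a prior count of 2, while log2 fold changes came from the fit at edgeR's default setting. CPM is per 1e6 counts of TMM-scaled library size. The value after ± is a standard error worked back from the test, as the size of the log2 fold change over the square root of F. Column names gave each column's sample. The unnumbered Pax5-KO column was taken as replicate 1, since the other is numbered 2. Scripts were tested on simulated data. DESeq2 1.42.0, RLE scaling, no filter, a replicate block, only the groups compared and each library left out were the alternatives.

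The members and the lists were chosen with earlier results of these data known. Genes named were those called in a comparison, 13 anchor subunits, the tissue isoforms with their partners, the 10 members with the smallest p among the 7 groups, up to 5 called genes of each other mitochondrial list, and Ebf1, Pax5 and Myc. Contact profiles of the series were not used here, and some single genes are not reported here.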

Additional observations from a re-analysis of the deposited data

Results flagged for a closer look

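The effect of a vector differed between the knockouts for 2 members, by edgeR's test of the difference itself. For Cox6a2 the log2 effect of Ebf1 was 3.97 higher in Ebf1-KO than in Pax5-KO cells (adjusted p = 0.022, n = 2 libraries per group), and the effect of Pax5 was 3.28 higher (adjusted p = 0.011). For Ndufb8 the effect of Pax5 was -1.70 lower in Ebf1-KO than in Pax5-KO cells (adjusted p = 0.045). Ndufb8 stood at 41.36 and 30.49 CPM in Ebf1-KO and 18.75 and 18.48 with Pax5, while Pax5-KO libraries had 37.64 and 37.64 CPM, and 70.17 and 56.29 once Pax5 was returned. The call for Ndufb8 was lost on leaving out any 1 of the 8 libraries in its contrast, with values from -1.84 to -1.45 and adjusted p up to 0.24.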

How the results depend on the processing

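Counts of members called depended on the setting, and the cause was not tested. No share over all genes is given for any alternative setting, so these counts cannot be set against the shares of the main fit. Against wild type, Ebf1-KO had 5 calls, but 12 with no filter on low counts, 12 by DESeq2 and 12 on fitting only the groups compared. Pax5-KO against wild type had 5, but 15 with no filter and 15 by DESeq2. Ebf1 into Ebf1-KO went from 0 to 1 with no filter, 1 by DESeq2 and 1 in its own groups, and Pax5 into Ebf1-KO from 0 to 3 with no filter and 3 by DESeq2. Ebf1 into Pax5-KO went from 4 to 11 with no filter, 12 by DESeq2 and 0 in its own groups, where fewer libraries set the spread. Pax5 into Pax5-KO had 2 calls in place of 1 with no filter, and Ebf1-KO against Pax5-KO 2 in place of 1 with no filter and 2 in its own groups. Ebf1 against Pax5 vectors in Ebf1-KO went from 3 to 6 with no filter and 6 in its own groups, and in Pax5-KO from 8 to 14 by DESeq2 and 0 in its own groups. The difference of the Ebf1 effect went from 1 to 0 in its own groups and that of the Pax5 effect from 2 to 4 with no filter. Among the 7 groups, 30 members in place of 14 were called with no filter and 22 by DESeq2. RLE scaling changed no count.

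Same-numbered libraries correlated at -0.0586 to 0.0126 in pairs with wild type and 0.0764 to 0.236 in other pairs, so not every pair was over 0.1 and, as the sources do not say what the number marks, the numbers were not taken as pairs. The replicate block gave 11 calls in Ebf1-KO against wild type, 11 in Pax5-KO against wild type, 1 with Ebf1 and 1 with Pax5 into Ebf1-KO, 10 with Ebf1 into Pax5-KO, 6 between vectors in Ebf1-KO and 11 in Pax5-KO, and 21 among the 7 groups. Its other counts were those without the block.

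Leaving out 1 library gave 1 to 5 calls in Ebf1-KO and 0 to 11 in Pax5-KO against wild type, 0 with Ebf1 and 0 with Pax5 into Ebf1-KO, 1 to 12 with Ebf1 and 0 to 3 with Pax5 into Pax5-KO, and 1 to 2 between the knockouts. Between vectors it gave 0 to 1 in Ebf1-KO and 3 to 13 in Pax5-KO, for the differences 0 to 3 (Ebf1) and 0 to 1 (Pax5), and among the 7 groups 4 to 19. A lone library was assumed to vary like the other groups. Of 282 alternative fits for 30 called gene results, 90 lost the call and 0 reversed. Peaks above the median score were at 7 members in place of 20. Depth is low for Cox6a2 with Ebf1 in Pax5-KO, which rests on 12 reads.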
